A study of Rattus norvegicus with 19 samples.

Results

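The atrial chamber genes Myl7, Myl4, Sln, Nppa and Bmp10 are 5 of the 17455 genes counted in 19 rat heart libraries. They were listed because they are enriched in atria, and they were selected on their counts in these same libraries, in which their spread was already known, so that their levels are given as a description with no test. All 5 passed the filter on low counts, which kept 12388 genes, but Bmp10 and Sln passed it through the few libraries in which they were high. Myl7 and Myl4 encode the atrial regulatory and essential myosin light chains, the counterparts of Myl2 and Myl3 in the ventricle. Sln encodes sarcolipin, a small membrane protein that inhibits the calcium pump SERCA in atrial muscle, as phospholamban does in the ventricle. Nppa encodes atrial natriuretic peptide, which atrial myocytes store and which stressed ventricle can make again, and Bmp10 encodes a secreted ligand that the adult atrium makes and that acts on endothelium through the receptor ALK1. In healthy adult ventricle, Myl7, Myl4, Sln and Bmp10 transcripts are scarce, which is why they are used to judge whether a ventricular sample holds atrial tissue.

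The study asked how empagliflozin (EMPA, an SGLT2 inhibitor) and pirfenidone (PFD, an antifibrotic drug), alone or together, act on rats with heart failure with preserved ejection fraction (HFpEF). RNA sequencing was done on 1 library per heart, in 7 groups with 3 libraries each except EMPA and PFD, which had 2 each. The rats were Sprague–Dawley by the methods and 24 weeks old at the start, the labels give the tissue as heart, the sex as Male and the strain as Wildtype, and the methods name the left ventricle. The disease was made with L-NAME (a nitric oxide synthase inhibitor, 0.5 g/L in drinking water) and a high-fat diet with 60% of its energy from fat, so it is a model of combined hypertensive and metabolic stress. Control 5w and control 9w were rats on normal chow without L-NAME, taken at week 5 and week 9. HFpEF rats had the diet and L-NAME for 5 weeks and were taken at week 5. The 4 other groups were HFpEF rats taken at week 9 after 4 weeks of oral dosing with vehicle alone (PBS, called untreated), EMPA at 0.35 g/kg/d, PFD at 0.3 g/kg/d, or EMPA + PFD at these same doses. The study describes an induction of 9 weeks, so L-NAME and the high-fat diet are read here as continued through dosing in these 4 groups. Total counts per library ran from 7430539 (EMPA replicate 1) to 13017754 (control 5w replicate 2), with a median of 9951011. A floor of 3 counts corresponded to between 0.230 and 0.404 CPM (each count scaled to a common library total), and this floor covers counting error alone. Levels below are CPM after TMM normalization (a scaling that corrects library totals for composition), and they are not divided by gene length, so that levels are compared between libraries and not between genes.

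Some libraries stood apart or went against their labels. Control 9w replicates 1 and 3 and untreated replicate 2 held the 3 highest levels of Myl7, Myl4, Sln and Bmp10, and differences in member means and calls of genes in comparisons that include them are given below with and without them, a choice made after their levels were seen. Untreated replicate 2 also held the lowest levels of the ventricular light chains, at 222 CPM of Myl2 and 494 CPM of Myl3, while the next lowest libraries had 603 CPM of Myl2 (HFpEF replicate 2) and 1254 CPM of Myl3 (HFpEF replicate 1). The ventricular markers Myl2 and Myl3 were therefore present in all 19 libraries. Eif2s3y, a gene on the Y chromosome, had 0 counts in 7 libraries labelled male (HFpEF replicates 1 and 3, untreated replicates 1, 2 and 3, and PFD replicates 1 and 2) and 613 to 1321 counts in the other 12. RT1-CE16, a gene of the rat major histocompatibility complex, had at most 3 counts in each library taken from control 5w, EMPA or HFpEF (8 in all) and 308 to 922 counts in the other 11. All libraries of control 9w, EMPA and EMPA + PFD had Eif2s3y counts and those of untreated had none, so in comparisons of untreated with these groups the difference in Eif2s3y and the difference in condition cannot be told apart. The same holds for RT1-CE16 in the comparisons of untreated with HFpEF and of EMPA with untreated.

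Myl7, the atrial regulatory light chain, was high in the 3 libraries that stood apart and at an intermediate level in control 5w. Its level was 694, 293 and 307 CPM in control 5w, 7.75, 15.3 and 39.7 CPM in HFpEF, 1083, 10.3 and 4260.4 CPM in control 9w, and 23.9, 3052 and 44.4 CPM in untreated (replicates 1, 2 and 3 in each). EMPA had 8.79 and 16.8 CPM, PFD had 25.7 and 3.19 CPM, and EMPA + PFD had 20.6, 0.956 and 14.1 CPM. All 3 control 5w libraries lay above all 3 HFpEF libraries, whereas control 9w and untreated each held libraries below and libraries above all of control 5w. The highest library (control 9w replicate 3) had 4454.5 times the level of the lowest (EMPA + PFD replicate 2). Within untreated, replicate 2 had 89.4 times the mean of replicates 1 and 3, which were hearts of the same treatment. In bulk tissue, a change in the number of cells of a type and a change in the RNA each cell holds cannot be told apart.

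Myl4, the atrial essential light chain, was high in the same 3 libraries and low elsewhere. It had 6.41, 33.8 and 29.9 CPM in control 5w, 10.2, 4.95 and 8.40 CPM in HFpEF, 305, 2.95 and 1381 CPM in control 9w, and 4.33, 1597 and 4.85 CPM in untreated. The levels were 8.26 and 24.3 CPM in EMPA, 12.7 and 4.84 CPM in PFD, and 4.02, 4.18 and 4.28 CPM in EMPA + PFD. The lowest of the 3 standing libraries had 9.01 times the level of the highest other library, control 5w replicate 2, a wider gap than the 1.56 times seen for Myl7, where control 5w replicate 1 came next. In the current rat gene table Myl4 overlaps Cdc27, a subunit of the anaphase-promoting complex, and the strand setting of the counting is not stated. Cdc27 ran from 22.7 to 59.4 CPM over the 19 libraries and was highest in control 5w replicate 2, and it had 28.7, 33.7 and 27.4 CPM in the 3 libraries with high Myl4.

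Sln, the atrial inhibitor of SERCA, was high in the same 3 libraries and at most 5.95 CPM in the other 16. It had 156, 0.984 and 695 CPM in control 9w and 0.317, 518 and 0.632 CPM in untreated. The other groups had 0.188, 2.79 and 0.796 CPM (control 5w), 0.431, 0.367 and 0.804 CPM (HFpEF), 2.66 and 5.95 CPM (EMPA), 0.657 and 0.720 CPM (PFD), and 0.710, 0.478 and 0.418 CPM (EMPA + PFD). EMPA was the next group after the 3 standing libraries, with 20 and 49 counts, and the lowest standing library had 26.3 times the level of EMPA replicate 2. Control 5w, where Myl7 was above its median in all 3 libraries, had 2, 36 and 10 counts of Sln.

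Bmp10, the atrial ligand, showed the sharpest separation of the 5 genes by the gap between the lowest of these 3 libraries and the highest other library, a factor of 31.8. It had 31.2, 0.984 and 127 CPM in control 9w and 0.528, 33.9 and 0.211 CPM in untreated, and at most 0.543 CPM in the 13 libraries of the other 5 groups. In counts, control 9w had 277, 8 and 1270, untreated had 5, 417 and 2, and 12 of the 19 libraries were at or under the floor of 3 counts. Differences among those 12 libraries were not detectable at this depth.

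Nppa, the natriuretic peptide gene, followed a different pattern from the 4 other genes. It had 2583, 5794 and 4311 CPM in control 5w, 2067, 251 and 1919 CPM in HFpEF, 3622, 173 and 16877 CPM in control 9w, and 18.9, 9671 and 434 CPM in untreated. EMPA had 678 and 5124 CPM, PFD had 2943 and 53.8 CPM, and EMPA + PFD had 60.8, 376 and 134 CPM. Control 9w replicate 3 and untreated replicate 2 were again the highest, but control 9w replicate 1 lay below control 5w replicates 2 and 3 and EMPA replicate 2, so its level was 0.625 times the highest level outside the 3 libraries. All 3 control 5w libraries lay above all EMPA + PFD libraries, and untreated held both the lowest library of the 19 and the library in second place.

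**Figure D1:**
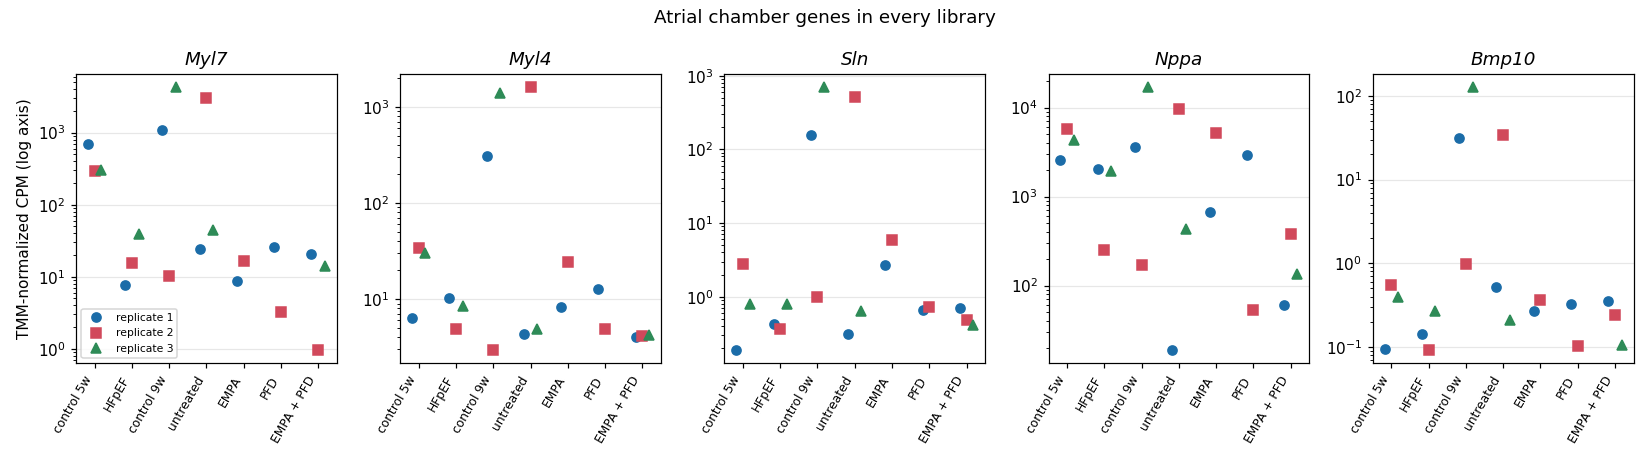
Level of each atrial chamber gene (TMM-normalized CPM, log axis) in every library, by group. Each point is 1 library and its shape and color give the replicate, and control 9w replicates 1 and 3 and untreated replicate 2 lie highest for Myl7, Myl4, Sln and Bmp10, with Sln at 156, 695 and 518 CPM.

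Ordered by mean log2 CPM (± SD), Myl7 was highest in control 5w (8.63 ± 0.70) and control 9w (8.51 ± 4.54), followed by untreated (7.22 ± 3.80), HFpEF (4.09 ± 1.17), EMPA (3.63 ± 0.65), PFD (3.23 ± 2.08) and EMPA + PFD (2.81 ± 2.27). For Myl4 the order was control 9w (6.78 ± 4.57), untreated (5.05 ± 4.84), control 5w (4.24 ± 1.32), EMPA (3.85 ± 1.08), PFD (3.01 ± 0.96), HFpEF (2.95 ± 0.52) and EMPA + PFD (2.12 ± 0.04). Without the 3 standing libraries, control 9w (1 library) and untreated (2 libraries) were at 3.40 and 5.04 for Myl7, 1.66 and 2.26 for Myl4, 0.24 and -0.61 for Sln, 7.43 and 6.51 for Nppa, and 0.24 and -0.88 for Bmp10. The orders with all libraries had large SDs in control 9w and untreated because each group held libraries of both kinds. Sln ran from control 9w (5.66 ± 4.81), untreated (2.60 ± 5.57) and EMPA (2.07 ± 0.78) through control 5w (0.07 ± 1.48) and PFD (-0.17 ± 0.07) to EMPA + PFD (-0.47 ± 0.29) and HFpEF (-0.50 ± 0.44). Nppa ran from control 5w (11.97 ± 0.59), control 9w (11.10 ± 3.36) and EMPA (10.86 ± 2.06) through HFpEF (9.96 ± 1.72), untreated (8.75 ± 4.49) and PFD (8.64 ± 4.08) to EMPA + PFD (7.19 ± 1.32). Bmp10 was highest in control 9w (4.07 ± 3.46) and untreated (1.11 ± 3.47), and the 5 other groups had means from -0.97 in EMPA to -1.48 in HFpEF. All neighbours in the 5 orders overlapped in their libraries except HFpEF and EMPA + PFD for Myl4.

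At week 5, where none of the 3 standing libraries lies, HFpEF libraries did not overlap control 5w libraries for Myl7 and Nppa, 2 of the 5 genes, and 37.7% of all tested genes did not overlap in that comparison. The difference in mean log2 CPM (HFpEF minus control 5w) was -4.54 for Myl7, -2.01 for Nppa, -1.29 for Myl4, -0.56 for Sln and -0.49 for Bmp10. Because the members were chosen with these levels known, nothing is read from the direction. At week 9, untreated minus control 9w had 0 of 5 genes without overlap beside 23.0% of all tested genes. The differences were -1.30 (Myl7), -1.73 (Myl4), -3.06 (Sln), -2.35 (Nppa) and -2.95 (Bmp10), and without the 3 libraries, which leaves control 9w with 1 library, they were 1.64, 0.60, -0.85, -0.92 and -1.12, so that the sign of Myl7 and Myl4 turned. Without untreated replicate 2 alone they were -3.48, -4.52, -6.27, -4.59 and -4.94. Untreated minus HFpEF had 0 of 5 genes without overlap beside 19.1% of all tested genes, with differences of 3.13 (Myl7), 2.10 (Myl4), 3.09 (Sln), -1.21 (Nppa) and 2.59 (Bmp10). Without untreated replicate 2 these were 0.95, -0.69, -0.12, -3.46 and 0.60.

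The drug groups were compared with untreated, in which 1 of 3 libraries stood apart. EMPA minus untreated had 1 of 5 genes without overlap (Myl7, lower in EMPA) beside 23.7% of all tested genes, and the differences in mean log2 CPM were -3.59 (Myl7), -1.20 (Myl4), -0.53 (Sln), 2.11 (Nppa) and -2.08 (Bmp10). Without untreated replicate 2 they were -1.41, 1.59, 2.68, 4.36 and -0.09, so that Myl4 and Sln turned from lower to higher. PFD minus untreated had 0 of 5 without overlap beside 24.2%, with -3.99, -2.04, -2.77, -0.11 and -2.44 for the 5 genes in the same order, and -1.81, 0.75, 0.44, 2.13 and -0.45 without untreated replicate 2. EMPA + PFD minus untreated had 2 of 5 without overlap (Myl7 and Myl4, both lower in EMPA + PFD) beside 37.4%. The differences were -4.41, -2.93, -3.06, -1.57 and -2.37, and -2.23, -0.13, 0.15, 0.68 and -0.38 without untreated replicate 2. Only Myl7 and Bmp10 kept a negative difference in all 3 drug comparisons without that library, and the Bmp10 levels behind it were at or near the floor.

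The ratio of atrial to ventricular light chain counts separated the same 3 libraries, whatever the library total. Myl7 to Myl2 was 1.23 in control 9w replicate 1, 6.84 in control 9w replicate 3 and 13.8 in untreated replicate 2. It was 0.249, 0.216 and 0.179 in control 5w and at most 0.0276 in the other 13 libraries. Myl4 to Myl3 was 0.107, 0.577 and 3.23 in these 3 libraries and at most 0.0109 in the other 16, and Sln to Pln (the phospholamban gene) was 0.0648, 0.287 and 0.573 against at most 0.00200. The order of the 3 libraries was thus the same for each of the 3 ratios, with untreated replicate 2 highest. Myl3 to Myl2, both ventricular, lay between 2.02 and 3.84 in all 19 libraries. Nppa to Nppb, the genes of the atrial and brain natriuretic peptides, was 19.6, 29.0 and 47.2 in the 3 libraries and 0.135 to 11.2 in the others.

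Among the members themselves, the ratios set control 5w apart from the 3 libraries. Myl7 to Myl4 was 3.55 and 3.08 in control 9w replicates 1 and 3 and 1.91 in untreated replicate 2, and it was 108, 8.67 and 10.3 in control 5w. Myl7 to Sln was 6.92, 6.13 and 5.89 in the 3 libraries and 3684, 105 and 386 in control 5w. Control 5w thus had Myl7 without a matching level of Sln or Bmp10, and its 3 libraries differed from each other in Myl4, with 68 counts in replicate 1 and 436 and 376 in the others.

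Of all 12388 tested genes, 107 (0.864%) had their 3 highest levels in these same 3 libraries, a count made after the levels were seen and from which nothing is read for the members. It held 4 of the 5 members and 4 of 19 tested genes of a further atrial-enriched list: Mybphl, an atrial myosin-binding protein, Stard10, a lipid-transfer protein, Sbk2, a kinase gene, and Cacna1d, a calcium channel subunit. Mybphl had 41.1, 178 and 90.7 CPM there and at most 0.850 CPM in the other 16 libraries, and Sbk2 had 10.8, 56.4 and 76.1 CPM against at most 2.85. It held 0 of 11 ventricular-enriched genes, 3 of 14 genes of BMP9 and BMP10 signalling (Eng, Smad6 and Smad7) and 1 of 9 natriuretic genes (Npr3, the clearance receptor, with 79.9, 182 and 83.9 CPM against at most 34.1). The lowest of the 3 libraries had 1.12 (Eng), 1.46 (Smad6) and 1.06 (Smad7) times the level of the next library, control 9w replicate 2. Of the BMP list, Id1 and Id3 were highest in that library, where Bmp10 was at 0.984 CPM, and Id2 in HFpEF replicate 1. Tnni2 was the 1 gene of 6 from the skeletal muscle list, and the 10 other lists held 0. In untreated replicate 2, Myl2 was at 0.109, Myl3 at 0.0907, Myh7 at 0.110 and Pln at 0.191 of the mean of untreated replicates 1 and 3. The ventricular list ran from 0.0907 (Myl3) to 0.671 (Hey2) there. In control 9w replicate 3, the ventricular genes ran from 0.441 (Myl2) to 2.72 (Irx5) of their level in replicate 2. In control 9w replicate 1 they ran from 0.623 (Myl2) to 2.37 (Irx5) of that level, with Myh7 at 0.965 and Pln at 0.922. The summed level of the ventricular list, in which Myh7 is the most abundant gene, was lowest in untreated replicate 2 (2794.5 CPM), with a median of 20202 CPM over the 19 libraries.

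**Figure D2:**
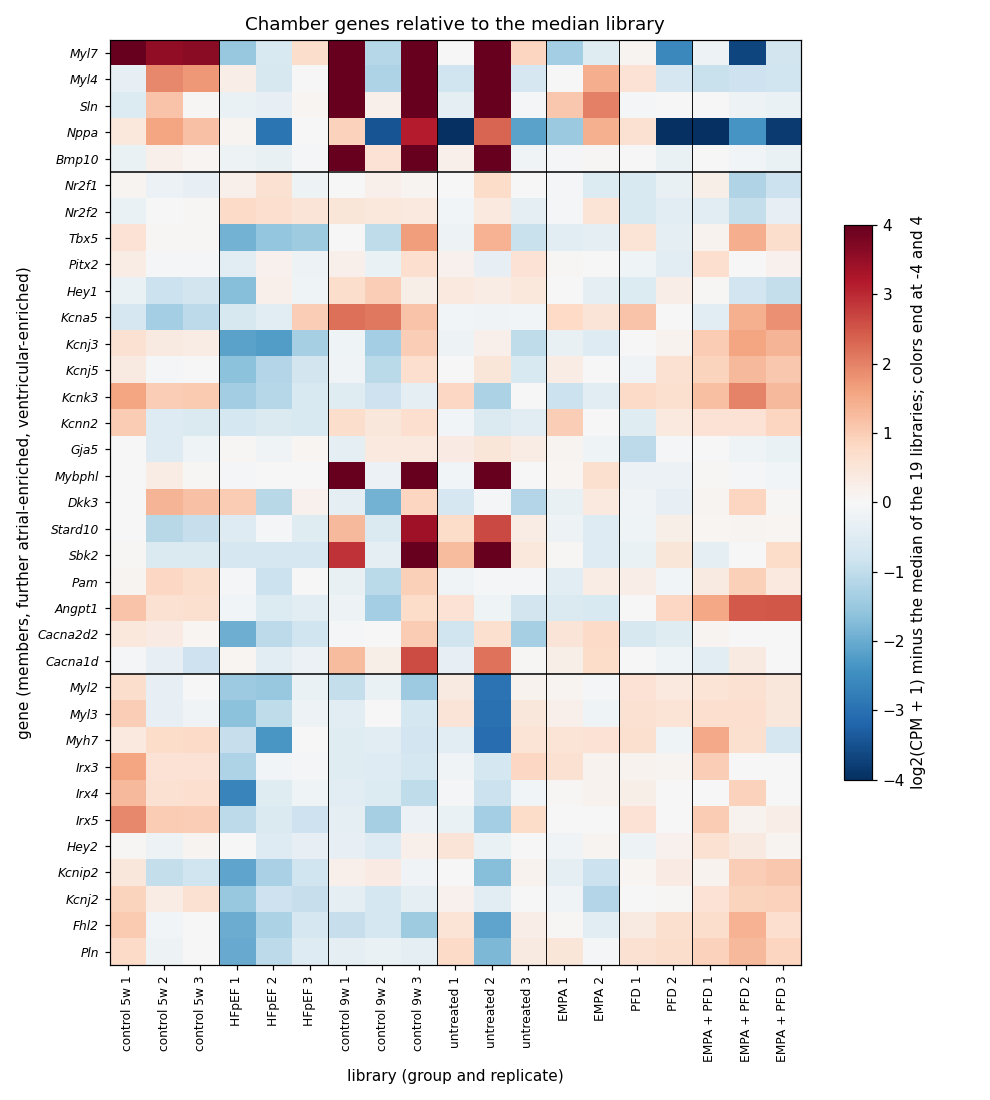
Members, further atrial-enriched genes and ventricular-enriched genes (from top to bottom, divided by lines) in each library, as log2(CPM + 1) minus the median of the 19 libraries. Red is above and blue below the median, with colors ending at -4 and 4, and the 3 libraries with Mybphl at 41.1, 178 and 90.7 CPM show as red columns in the members, while untreated replicate 2 is blue in Myl2, Myl3 and Myh7.

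The further atrial-enriched list, which leaves out the members, was tested with the edgeR quasi-likelihood test and Benjamini-Hochberg adjustment over all tested genes, and a gene was called at an adjusted p under 0.05 and a log2 fold change of at least 1 in size. In HFpEF against control 5w, 5 of 19 genes fell and 0 rose, and 8.69% of all tested genes were called. The list's median log2 fold change was -0.84, beside 0.02 for all tested genes. Kcnk3, which encodes the potassium channel TASK-1, had 44.3, 29.0 and 30.6 CPM in control 5w and 4.81, 5.87 and 9.02 CPM in HFpEF, and it fell by 2.40 on the log2 scale (SE 0.43, adjusted p = 0.00297). Kcnj3, a subunit of the acetylcholine-activated potassium channel, had 24.2, 20.4 and 19.5 CPM and 2.80, 2.57 and 5.63 CPM, and fell by 2.55 (SE 0.50, adjusted p = 0.00520). The groups did not overlap for either gene, beside 37.7% of all tested genes, and both kept the call under all 29 alternatives.

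Kcnj5, the partner subunit of Kcnj3, fell by 1.32 (SE 0.39, adjusted p = 0.0301), Cacna2d2, a calcium channel subunit, fell by 1.55 (SE 0.44, adjusted p = 0.0251), and Tbx5, a transcription factor of atrial and conduction myocytes, fell by 2.14 (SE 0.70, adjusted p = 0.0437). Over the 29 alternatives the adjusted p of Kcnj5 ran from 0.00707 to 0.103, that of Cacna2d2 from 0.00280 to 0.0880 and that of Tbx5 from 0.00425 to 0.122. Leaving out control 5w replicate 1 ended the call of all 3 (adjusted p = 0.0875, 0.0667 and 0.110), as did HFpEF replicate 1 (0.103, 0.0880 and 0.122) and HFpEF replicate 2 (0.0785, 0.0570 and 0.0992). The call of Cacna2d2 and Tbx5 also ended without control 5w replicate 2 (0.0524 and 0.0656), and that of Kcnj5 and Tbx5 without control 5w replicate 3 (0.0570 and 0.0702). Tbx5 also lost it without HFpEF replicate 3 (0.0777), control 9w replicate 1 (0.0510), EMPA replicate 1 (0.0547) or 2 (0.0546), PFD replicate 1 (0.0507) or 2 (0.0507), or EMPA + PFD replicate 3 (0.0560). In a fit of only the libraries of the 2 groups Kcnj5 and Cacna2d2 were not called (0.0515 and 0.0505), with limma-voom Kcnj5 was under the fold needed (-0.96), and with the replicate number as a block Tbx5 was not called (0.0606). The list's count was 6 by DESeq2 and 6 by limma-voom, 2 without control 5w replicate 1, HFpEF replicate 1 or HFpEF replicate 2, and 3 without control 5w replicate 2 or 3. Calls among all genes went from 1076 to 730, 826, 832, 916 and 801 in these 5 cases, and were 1271 by DESeq2, 1363 by limma-voom and 429 in the fit of the 2 groups. Among ventricular-enriched genes, 5 of 11 also fell in this comparison by edgeR (median -1.43), with 6 called by DESeq2, 3 by limma-voom and 9 with the members' mean as a covariate.

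The ventricular genes called lower in HFpEF were Irx3, Irx4 and Irx5 (Iroquois transcription factors), Kcnj2 (an inward rectifier potassium channel) and Fhl2. Irx5 fell by 2.47 (SE 0.53, adjusted p = 0.00744) and Kcnj2 by 1.88 (SE 0.30, adjusted p = 0.00147) in the edgeR test, and both kept the call under all 29 alternatives. The calls of Irx3, Irx4 and Fhl2 ended without control 5w replicate 1 (adjusted p = 0.126, 0.0705 and 0.163), where the list's count was 2. Those of Irx3 and Fhl2 also ended without HFpEF replicate 1 (0.0982 and 0.134) or HFpEF replicate 2 (0.0514 and 0.105), where the count was 3, and without untreated replicate 2 the count was 8 (1228 of all genes). Fhl2 also lost its call without control 5w replicate 3 (0.0574), control 9w replicate 1 (0.0565) or 2 (0.0501), untreated replicate 3 (0.0501), EMPA replicate 1 (0.0523) or 2 (0.0523), PFD replicate 1 (0.0524) or 2 (0.0524), or EMPA + PFD replicate 3 (0.0516). In a fit of only the libraries of the 2 groups none of these 3 was called (0.103, 0.138 and 0.0884), with limma-voom Irx3 and Fhl2 were under the fold needed (-0.91 and -0.90), and with the replicate block Fhl2 was not called (0.0739). Over the alternatives the adjusted p ran from 0.00695 to 0.126 for Irx3, from 0.00287 to 0.138 for Irx4 and from 0.00682 to 0.163 for Fhl2.

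At week 9, 0 of 19 further atrial-enriched genes were called by edgeR in untreated against control 9w, with 3 at an unadjusted p under 0.05, 1 called by DESeq2 and 4 by limma-voom, and 0.912% of all tested genes (113) were called by edgeR. Of all genes, DESeq2 called 298 and limma-voom 1037. The list's median was -0.31, beside 0.01 for all genes. Without untreated replicate 2 the count was 3 (413 of all genes), without HFpEF replicate 3 (101) or EMPA + PFD replicate 1 (149) it was 1, and without all 3 standing libraries (80) it was 0 of 18 with a median of 0.72. Untreated against HFpEF likewise gave 0 of 19 by edgeR, with 10 at an unadjusted p under 0.05, 5 called by DESeq2 and 0 by limma-voom, and with a median of 1.00. That median was 0.65 without the 3 standing libraries and 0.52 with the members' mean as a covariate. Of all tested genes edgeR called 24 (0.194%), DESeq2 441 and limma-voom 1076. Without untreated replicate 2 the count was 1 and all-gene calls were 933, and without the 3 libraries it was 3 of 18 (Kcnj3, Kcnk3 and Sbk2, all higher in untreated) beside 635 of all genes.

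With EMPA alone, 0 of 19 genes were called by edgeR against untreated, with 4 at an unadjusted p under 0.05, 0 called by DESeq2 and 1 by limma-voom, beside 0.0404% of all tested genes. PFD alone also gave 0 of 19 by edgeR, with 4 at an unadjusted p under 0.05 and 0 by both DESeq2 and limma-voom, beside 0.00807% of all tested genes. Medians were -0.47 for EMPA and -0.33 for PFD, and without the 3 libraries their sign turned to 0.08 and 0.22. Each of these groups had 2 libraries, and 5 genes of all tested were called by edgeR with EMPA and 1 with PFD (51 and 4 by DESeq2, 24 and 5 by limma-voom).

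With EMPA + PFD, 3 of 19 further atrial-enriched genes rose against untreated and 0 fell, beside 3.82% of all tested genes, and the list's median was 0.35. Kcnj3 had 32.6, 48.5 and 41.9 CPM in EMPA + PFD and 13.4, 18.3 and 7.17 CPM in untreated, and rose by 1.65 on the log2 scale (SE 0.47, adjusted p = 0.0365 by edgeR). Kcnk3 had 34.3, 58.8 and 36.3 CPM against 25.8, 5.28 and 14.2 CPM and rose by 1.52 (SE 0.41, adjusted p = 0.0320). Angpt1, which encodes the TIE2 ligand angiopoietin 1, had 29.6, 57.0 and 58.2 CPM against 14.8, 8.28 and 5.37 CPM and rose by 2.35 (SE 0.48, adjusted p = 0.0129). For each of the 3 genes, every EMPA + PFD library lay above every untreated library, and 37.4% of all tested genes did not overlap in that comparison. Every one of the 3 calls was lost without untreated replicate 2 (adjusted p = 0.0710 for Kcnj3, 0.0935 for Kcnk3 and 0.0621 for Angpt1) and without EMPA + PFD replicate 2 (0.130, 0.138 and 0.0630), where the count was 0. Without untreated replicate 3 (0.0984 and 0.0784) or EMPA + PFD replicate 3 (0.0864 and 0.0652) Kcnj3 and Kcnk3 lost it and the count was 1, and without untreated replicate 1 Kcnj3 lost it (0.0510). The count was 5 without control 9w replicate 2 or EMPA + PFD replicate 1, 8 by DESeq2 and 9 by limma-voom. In a fit of only the libraries of the 2 groups it was 0 (0.0964, 0.144 and 0.0885). Kcnj3 also lost its call with the replicate number as a block (0.0559) and Kcnk3 with the members' mean as a covariate (0.0597). Over the 29 alternatives the adjusted p ran from 0.000418 to 0.130 for Kcnj3, from 0.00106 to 0.144 for Kcnk3 and from 9.3e-05 to 0.0885 for Angpt1. The calls among all genes moved under the same alternatives, from 473 to 83 without untreated replicate 2, 59 without EMPA + PFD replicate 2, 210 without untreated replicate 3, 159 without EMPA + PFD replicate 3 and 5 in the fit of the 2 groups. They were 910 without untreated replicate 1, 793 without EMPA + PFD replicate 1, 435 without control 9w replicate 2, 720 by DESeq2 and 834 by limma-voom. Without the 3 libraries, where 33 of all genes were called, Kcnj3 and Angpt1 were called, Kcnk3 was not (0.129), and the median was 0.90.

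Around Nppa, 2 of 9 tested genes of the natriuretic peptide system fell in HFpEF against control 5w and 0 rose, beside 8.69% of all tested genes. Corin, the protease that activates the Nppa product, had 119, 90.5 and 95.0 CPM in control 5w and 15.6, 26.9 and 30.2 CPM in HFpEF, and fell by 2.07 (SE 0.56, adjusted p = 0.0203 by edgeR). The call was lost without control 5w replicate 1 (0.0552), HFpEF replicate 1 (0.0691) or HFpEF replicate 2 (0.0527), with a range of 0.00148 to 0.0691 over the alternatives. Ide, an enzyme that degrades the peptides, fell by 1.11 (SE 0.15, adjusted p = 0.000614) and kept its call under all 29 alternatives. Nppb, the most abundant gene of the list, was not called by edgeR in any of the 6 comparisons. With EMPA + PFD, 1 of the 9 genes was called against untreated by edgeR, beside 3.82% of all tested genes. That count was 2 by DESeq2, 3 by limma-voom and 4 with the members' mean as a covariate. In EMPA + PFD against untreated, Prkg1, the cGMP-dependent kinase downstream of the peptide receptors, rose by 1.35 (SE 0.34, adjusted p = 0.0248), a call lost without untreated replicate 2 (0.104) or 3 (0.0703) and without EMPA + PFD replicate 2 (0.127) or 3 (0.0665), in a fit of the 2 groups alone (0.125) and without the 3 standing libraries (0.133), with a range of 0.00194 to 0.133.

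Around Sln, Atp2a2, the cardiac SERCA gene and the most abundant of its list, was the 1 of 4 tested genes called in HFpEF against control 5w by edgeR, beside 8.69% of all tested genes. The count was 2 by DESeq2, with the members' mean as a covariate and without the 3 standing libraries, 0 by limma-voom, and 0 to 2 with 1 library left out. It had 10085, 4487.5 and 5176 CPM in control 5w and 1092, 1774 and 3200.3 CPM in HFpEF, and fell by 1.70 (SE 0.49, adjusted p = 0.0259 by edgeR). The call was lost without control 5w replicate 1 (0.103), HFpEF replicate 1 (0.0875) or HFpEF replicate 2 (0.0814), in a fit of only the libraries of the 2 groups (0.103) and with limma-voom (-0.94, under the fold needed for a call), with a range of 0.00200 to 0.103 over the alternatives. Among 9 tested genes of the myosin light chain family, in which Myl3 is the most abundant, the call was Mylk3, a cardiac kinase of the regulatory light chain. The share of all tested genes was 8.69% in HFpEF and 3.82% in EMPA + PFD. The light chain count in HFpEF ran from 0 to 3 with 1 library left out and was 3 with the members' mean as a covariate. Mylk3 fell by 1.41 in HFpEF (SE 0.38, adjusted p = 0.0194) and rose by 1.52 in EMPA + PFD against untreated (SE 0.38, adjusted p = 0.0248). The call in HFpEF was lost without HFpEF replicate 1 (0.0608) or 2 (0.0716) and in a fit of the 2 groups alone (0.0667), with a range of 0.00195 to 0.0716. The other was lost without untreated replicate 2 (0.0861) or 3 (0.0560) and without EMPA + PFD replicate 2 (0.0928) or 3 (0.0696), in a fit of the 2 groups alone (0.118) and without the 3 standing libraries (0.109), with a range of 0.00129 to 0.118.

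Around Bmp10, 1 of 14 tested genes of BMP9 and BMP10 signalling rose in HFpEF against control 5w and 2 fell in EMPA + PFD against untreated, beside 8.69% and 3.82% of all tested genes. With 1 library left out the EMPA + PFD count ran from 0 to 4. Id1, a direct target of BMP signalling, had 85.6, 56.9 and 59.5 CPM in control 5w and 162, 251 and 230 CPM in HFpEF and rose by 1.67 (SE 0.24, adjusted p = 0.000851 by edgeR), a call kept under all 29 alternatives. Eng, the endothelial co-receptor endoglin and the most abundant gene of the list, had 674, 1060.0 and 686 CPM in untreated and 425, 314 and 313 CPM in EMPA + PFD. It fell by 1.20 (SE 0.20, adjusted p = 0.00677), but by 0.95 without untreated replicate 2 (adjusted p = 0.0316) and by 0.95 without the 3 standing libraries (0.0496), both under the fold needed for a call, and it was not called in a fit of the 2 groups alone (0.0997), with a range of 5.04e-07 to 0.0997 over the alternatives. Id3, another target, fell by 1.16 (SE 0.31, adjusted p = 0.0292), a call lost without untreated replicate 2 (0.147) or 3 (0.0568) and without EMPA + PFD replicate 2 (0.138) or 3 (0.107), in a fit of the 2 groups alone (0.117), with the members' mean as a covariate (0.0729) and without the 3 standing libraries (0.182), with a range of 0.00118 to 0.182. In the comparison in which Id1 rose, Bmp10 had 1, 7 and 5 counts in control 5w and 2, 1 and 3 counts in HFpEF.

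Node and conduction genes were read beside the members because the sinus node lies in the atrial wall. Hcn4, the pacemaker channel, had 48.1, 54.7 and 59.0 CPM in control 5w and 4.52, 1.65 and 3.04 CPM in HFpEF, and fell by 4.11 (SE 0.48, adjusted p = 0.000280 by edgeR), a call kept under all 29 alternatives. Control 9w had 1.35, 0.369 and 2.49 CPM of Hcn4 (12, 3 and 25 counts), and untreated had 3.17, 4.30 and 9.69 CPM. Every untreated library thus lay above every control 9w library, the opposite order to week 5, and 23.0% of all tested genes did not overlap at week 9. Of the list, 0 of 9 tested genes were called by edgeR in untreated against control 9w, 2 by DESeq2 and 4 by limma-voom. In EMPA + PFD against untreated Hcn4 rose by 1.75 (SE 0.45, adjusted p = 0.0261), a call lost without untreated replicate 2 (0.112) and without EMPA + PFD replicate 2 (0.116) or 3 (0.0504), in a fit of the 2 groups alone (0.107) and without the 3 standing libraries (0.107), with a range of 0.00232 to 0.116. In HFpEF against control 5w and in EMPA + PFD against untreated, 2 of 9 tested genes of the list were called by edgeR each time, beside 8.69% and 3.82% of all tested genes. In HFpEF the count was 3 by DESeq2 and 4 by limma-voom, and in EMPA + PFD it was 0 without the 3 standing libraries. The other gene was Cntn2 in HFpEF, which rose by 1.57 (SE 0.39, adjusted p = 0.0148) and lost its call without HFpEF replicate 1 (0.0737) and in a fit of the 2 groups alone (0.0818, with a range of 0.00164 to 0.0818 over the alternatives). In EMPA + PFD the other was Cacna1g, which fell by 2.30 (SE 0.71, adjusted p = 0.0488) although its groups overlapped, and which lost its call under 24 of 29 alternatives (range 0.00763 to 0.454), with a change of -0.82 without untreated replicate 2. Cacna1g, a calcium channel gene and the most abundant of the list, was highest in untreated replicate 2, at 294 CPM beside 30.9 and 61.7 CPM in replicates 1 and 3, and the summed level of the list was highest there too (415 CPM).

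Markers of other tissues that a heart sample can hold were summed in each library, and their part in the results was not tested. The share of all tested genes called was 8.69% in HFpEF against control 5w, the comparison of the counts below. Summed levels ran from 49.1 CPM (control 5w replicate 2) to 208 CPM (control 9w replicate 2) for epicardium and mesothelium, with Wt1 the most abundant gene. Wt1 made up 194 CPM of the highest sum, in a library with 1 count of Upk1b, 3 of Msln and 0 of Krt19, and these 3 genes were highest in HFpEF replicate 1 (84, 233 and 76 counts). In control 9w Upk1b had 2, 1 and 5 counts, Msln 10, 3 and 48, and Krt19 1, 0 and 10. In untreated Upk1b had 0, 8 and 10 counts, Msln 1, 16 and 0, and Krt19 0, 57 and 3. By edgeR 4 of 6 tested genes rose in HFpEF against control 5w (Wt1, Upk1b, Msln and Rspo1). That count was 2 without control 5w replicate 1 or 2 or HFpEF replicate 1, and 1 without control 5w replicate 3, and it ran up to 5 with another library left out. For cardiac ganglion neurons, with Prph the most abundant, the sum was highest in control 9w replicate 3 (66.0 CPM), where Gal alone had 51.8 CPM, and control 9w replicate 1 and untreated replicate 2 had 50.1 and 28.3 CPM beside 16.5, 16.4 and 16.8 CPM in the other libraries of these groups. In control 9w the difference came mostly from Gal, with 300, 5 and 520 counts, while Prph had 112, 101 and 97 counts. HFpEF had 61.9, 35.9 and 36.1 CPM with low Sln. Gal was the 1 of 4 tested ganglion genes called in HFpEF, where it rose, and the count was 0 without control 5w replicate 1, 2 or 3 or HFpEF replicate 1, 2 without control 9w replicate 3 and 3 without HFpEF replicate 3. Adipocyte markers, with Fabp4 the most abundant, ran from 586 CPM (control 5w replicate 2) to 3755 CPM (control 9w replicate 2). Of the highest sum 3652 CPM was Fabp4, and Adipoq, Plin1 and Cidec had 0 counts in that library. By edgeR 2 of 5 tested genes rose in HFpEF (Fabp4 and Pparg), or 1 without HFpEF replicate 2 or 3, control 5w replicate 2 or 3 or control 9w replicate 1.

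Valve and tendon-like matrix genes, with Comp the most abundant, were highest in HFpEF replicate 1 (677 CPM) and EMPA replicate 2 (463 CPM) and had 62.8, 91.6 and 107 CPM in the 3 libraries with high Sln. Hapln1 of this list had 37, 1 and 252 counts in control 9w and 2, 59 and 0 counts in untreated. Sox9 was highest in untreated replicate 2 (34.2 CPM). Scx was lower there, at 0.310 of the mean of untreated replicates 1 and 3, and Comp, Fmod, Chad and Prg4 were at 1.05 to 1.41 of it. In HFpEF, where 8.69% of all tested genes were called, 3 of 7 tested genes rose (Comp, Fmod and Prg4), or 1 without control 5w replicate 1 and 0 without HFpEF replicate 1. In EMPA + PFD against untreated (3.82% of all tested genes) 1 of 7 fell (Prg4), or 0 without untreated replicate 2 or 3 or EMPA + PFD replicate 2 or 3, and Prg4 was not called without the 3 standing libraries (0.113) or in a fit of the 2 groups alone (0.0871). Smooth muscle genes of large vessels, with Eln the most abundant, ran from 602 CPM (EMPA + PFD replicate 1) to 2593 CPM (control 5w replicate 2). Of the highest sum 1973.4 CPM was Eln. Myh11, Acta2, Tagln, Cnn1 and Lmod1 were highest in EMPA replicate 2 (sum 2513.5 CPM), Smtn in control 9w replicate 2 and Fbln5 in HFpEF replicate 1. In HFpEF 0 of 8 were called by edgeR, with 4 at an unadjusted p under 0.05, 3 called by DESeq2 and 2 by limma-voom, and 3 without EMPA replicate 1 or 2 and 1 without control 5w replicate 1 or HFpEF replicate 2. Skeletal muscle genes, with Tnnt3 the most abundant, summed to between 24.4 and 105 CPM, and 1 of 6 tested genes rose in HFpEF (Tnni2), or 0 without control 5w replicate 1, 2 or 3 or HFpEF replicate 1 or 2. Of the markers of other tissues that rose in HFpEF, Upk1b was the 1 that kept its call in a fit of only the libraries of the 2 groups. With the replicate number as a block Wt1 (0.0544), Msln (0.0851), Gal (0.0580) and Fabp4 (0.0643) were not called, and with limma-voom Msln (0.161), Gal (0.143) and Rspo1 (0.86, under the fold needed) were not. Lung epithelium genes summed to between 10.1 and 31.7 CPM, nearly all from Ager, and Sftpb was at 0 in all libraries. Thymus genes summed to at most 6.43 CPM, with Dntt the most abundant and Rag2 at 0 in all libraries, and the 1 tested gene (Dntt) rose in untreated against control 9w (0.912% of all tested genes) and fell in EMPA + PFD against untreated (3.82%). The first call was lost without control 9w replicate 1, 2 or 3 or untreated replicate 1 or 3 and with the replicate block (0.0511), and the other without untreated replicate 2 or 3 or EMPA + PFD replicate 1 or 2 and in a fit of the 2 groups alone (0.114). Both were lost without the 3 standing libraries (0.183 and 0.114).

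The 10 genes whose levels over the 19 libraries were most like the mean of the members, by Spearman correlation among genes with a mean of at least 1 CPM, were Nab1 (0.921), Ecm1 (0.872), Lctl (0.851), Rxfp1 (0.849), Cit (0.835), Thbs3 (0.811), Myof (0.798), Micb (0.793), Cd44 (0.786) and Smc2 (0.784). Rxfp1, the relaxin receptor, ran from 0.956 to 82.4 CPM and Nab1 from 92.4 to 137 CPM. The libraries share groups and totals, and the values are a description. By Pearson correlation 2 of the 10 were kept, and without the 3 standing libraries 3 were kept.

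Promoters are shown for the members that had sequence. Of these, Myl7, Myl4 and Bmp10 were high in the same libraries, and Nppa followed a different pattern. RefSeq sequence on the GRCr8 build was held for 4 of the 5 members (Myl7, Myl4, Nppa and Bmp10), as 300 bases around each gene's start (position 0 below), and Sln had no entry. Motifs were searched on both strands as AGATAA and TGATAA (forms of the GATA motif), AGGTGT (T-box), AGGTCA (nuclear receptor half-site), CAAGTG (NK2 homeobox) and the CArG box of serum response factor. They occur in 11.6%, 9.03%, 13.6%, 16.2%, 14.1% and 1.64% of 33469 promoters of the same length. Capitals mark the matches, and a match is a description of the letters alone. Myl7 (chr14:84996575-84996874, minus strand) holds CAAGTG at -181 and -57, Myl4 (chr10:89975900-89976199, plus strand) holds AGGTGT at -188, Nppa (chr5:163711934-163712233, plus strand) holds TGATAA at -132 and CAAGTG at -96, and Bmp10 (chr4:121429125-121429424, plus strand) holds AGATAA at -248 and -71.
Myl7: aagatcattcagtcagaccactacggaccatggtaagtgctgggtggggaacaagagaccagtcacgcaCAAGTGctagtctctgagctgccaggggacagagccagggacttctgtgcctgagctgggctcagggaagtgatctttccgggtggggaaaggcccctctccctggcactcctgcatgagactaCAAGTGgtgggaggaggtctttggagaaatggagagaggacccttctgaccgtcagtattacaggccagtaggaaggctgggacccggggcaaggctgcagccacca
Myl4: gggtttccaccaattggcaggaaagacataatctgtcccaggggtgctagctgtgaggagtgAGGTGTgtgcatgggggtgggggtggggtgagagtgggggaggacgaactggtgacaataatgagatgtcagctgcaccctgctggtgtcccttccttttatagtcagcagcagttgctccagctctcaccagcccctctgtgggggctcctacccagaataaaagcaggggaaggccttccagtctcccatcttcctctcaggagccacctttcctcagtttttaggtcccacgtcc
Nppa: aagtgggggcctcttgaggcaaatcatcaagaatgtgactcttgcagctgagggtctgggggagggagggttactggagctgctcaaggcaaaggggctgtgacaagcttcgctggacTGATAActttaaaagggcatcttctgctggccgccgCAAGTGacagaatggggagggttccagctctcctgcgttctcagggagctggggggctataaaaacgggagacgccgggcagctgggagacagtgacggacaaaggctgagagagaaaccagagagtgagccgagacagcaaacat
Bmp10: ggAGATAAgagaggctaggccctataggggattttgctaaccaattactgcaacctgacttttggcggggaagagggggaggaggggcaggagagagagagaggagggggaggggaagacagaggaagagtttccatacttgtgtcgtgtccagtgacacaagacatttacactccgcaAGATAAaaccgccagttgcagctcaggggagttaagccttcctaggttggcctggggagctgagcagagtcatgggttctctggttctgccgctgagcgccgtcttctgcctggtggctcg
Of 13 promoters found for the further atrial-enriched genes, AGATAA was in 2 (Mybphl and Pam), TGATAA in 1 (Tbx5), and AGGTCA and CAAGTG in 1 (Sbk2).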

How the data were processed

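RNA sequencing of 19 rat hearts was read as raw counts per gene symbol, the counts the authors deposited for each library. By the study's account reads were trimmed with Trim Galore, checked with FastQC, aligned to rn6 with HISAT2 and counted with HTSeq, and versions, overlap mode, strand setting and annotation release are not stated. The study left out 1 EMPA and 1 PFD library. The members and lists were chosen with earlier results of these data known.

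Genes were filtered with filterByExpr, scaled with TMM and tested in 1 model of the 7 groups with the edgeR (4.0.16) quasi-likelihood test in R 4.3.3, with Benjamini-Hochberg adjustment over 12388 genes, in 6 comparisons. A call needed an adjusted p under 0.05 and a log2 fold change of at least 1 in size. The members have means of log2 CPM (prior count 2) and no test. Alternatives used RLE and upper quartile scaling, no filter, another prior count, DESeq2 1.42.0, limma 3.58.1 (voom with sample weights), 2 groups at a time, the adjusted p alone, the members' mean as a covariate, the replicate number as a block, and each library left out. Leaving out the 3 libraries with the highest Sln was chosen after seeing the data. Where a group kept 1 library, it was assumed to vary like the other groups. Figures used Python 3.11.15 and matplotlib 3.10.9.

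Named genes were the members, Myl2, Myl3, Hcn4, Eif2s3y, RT1-CE16, called genes of the atrial and pathway lists (at most 5 each by fold change), the most abundant gene of each list by CPM, and the 10 genes most like the members by Spearman correlation. Other genes were named after their values were seen. Of the listed symbols, Sbk3, Gjd3, Strit1, Erln, Myl10, Upk3b, Lrrn4, Muc16, Acan and Ptcra were not analysed here, and some items are not reported here.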

Additional observations from a re-analysis of the deposited data

Results flagged for a closer look

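Nr2f2 and Kcna5, of the further atrial-enriched list, had differences of opposite sign at week 5 and week 9, with every library of the disease group on 1 side of every control library at each time. Neither gene was called by edgeR in either comparison, and both were picked for this pattern. The gaps were narrow in places, at 4.99 and 5.10 CPM of Kcna5 at week 5 and 34.8 and 35.1 CPM of Nr2f2 at week 9. For Nr2f2, which encodes the nuclear receptor COUP-TFII, the difference in mean log2 CPM was 0.74 (HFpEF minus control 5w) and -0.50 (untreated minus control 9w). Nr2f2 had 21.8, 26.5 and 27.5 CPM in control 5w, 45.7, 42.5 and 38.2 CPM in HFpEF, 37.9, 36.2 and 35.1 CPM in control 9w, and 24.4, 34.8 and 20.0 CPM in untreated. For Kcna5, an atrial potassium channel, the differences were 1.13 and -2.02, with 4.99, 2.72 and 3.66 CPM in control 5w, 5.10, 6.14 and 18.0 CPM in HFpEF, 42.5, 40.1 and 19.9 CPM in control 9w, and 7.91, 7.63 and 7.90 CPM in untreated. The difference between the times was not tested for either gene. Of all 12388 tested genes, 746 (6.02%) did the same, as did 2 of 19 further atrial-enriched genes and 0 of 5 members.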

How the results depend on the processing

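Of 174 alternative counts of called further atrial-enriched genes, 149 stayed within 1.5 times the reported count. The reported count was 0 in untreated against control 9w, in untreated against HFpEF, and in EMPA and PFD against untreated. There, staying within 1.5 times means only that the count stayed at 0, so the 149 does not measure how steady the calls are. With 1 library left out, the count ran from 2 to 6 in HFpEF against control 5w, from 0 to 3 in untreated against control 9w, from 0 to 1 in untreated against HFpEF, from 0 to 0 in EMPA and in PFD against untreated, and from 0 to 5 in EMPA + PFD against untreated. DESeq2 called 1 in untreated against control 9w, 5 in untreated against HFpEF and 8 in EMPA + PFD against untreated. Limma-voom called 4 in untreated against control 9w, 1 in EMPA and 9 in EMPA + PFD against untreated. A fit of only the libraries of the 2 groups called 1 in untreated against control 9w and 0 in EMPA + PFD against untreated. With the members' mean as a covariate 2 were called in untreated against HFpEF, and without the 3 libraries with the highest Sln 3 were called. The cause of these shifts was not tested. With the replicate number as a block the 6 counts were 4, 0, 0, 0, 0 and 2, and over 52 pairs of libraries with the same number the correlation ran from -0.53 to 0.49 with a median of -0.07. It was over 0.1 in 11 of the 52 pairs. Pairs with different numbers were not compared, so these values do not settle whether the numbers pair libraries. For the members, the SD is set by the libraries that the alternatives leave out and does not measure how steady the differences are. Without the 3 libraries, the difference for Myl4 in EMPA minus untreated turned from -1.20 to 1.59. Of 3894 other alternative values, 3468 were labelled the same, 230 moved, 196 lost a call and 0 reversed. All 290 alternative values of the members were labelled the same, although differences such as that of Myl4 turned sign. The 0 therefore does not hold for the signs of the members' differences. Bmp10 and Sln levels at or under 3 counts limit what can be compared outside the 3 libraries.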

Other observations

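By Pearson correlation with the mean of the members over the 19 libraries, genes among the most alike were Mybphl (0.948), Atp1b4 (0.923), Zfp579 (0.877) and Hamp (0.877), which were chosen after their values were seen. Each of these 4 had its 3 highest levels in control 9w replicates 1 and 3 and untreated replicate 2. Hamp, the gene of the iron regulator hepcidin, ran from 0.942 to 267 CPM with a median of 4.75 CPM.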
